A study of Mus musculus with 12 samples.

Results

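Endoplasmic reticulum (ER) chaperone and stress genes are described here across 4 conditions of mouse cerebellum. The group is 10 genes chosen by name as chaperones and targets of the unfolded protein response, and all 10 had a row among the 7667 genes of the table. The genes and the limits used below were chosen with earlier results of these data known. The tissue came from fxSCA7 92Q mice at 29 weeks, wild-type littermates at 29 weeks, fxSCA7 92Q mice at 12 weeks and wild-type littermates at 12 weeks. fxSCA7 92Q is a mouse model of spinocerebellar ataxia type 7 in which ataxin-7 carries a tract of 92 CAG repeats, and the wild-type animals have a repeat of normal length. The labels do not say which promoter drives the expanded allele or which strain was used. Each condition had 3 libraries of total RNA, each from tissue pooled from 3 mice, 12 libraries in all. The deposited value is a whole-number normalized score, 1 per gene and condition, in which the authors combined the 3 libraries. No spread between libraries can therefore be given, no test was made, and "higher" and "lower" describe these 4 values only. Their read depth is unknown. The column median was 22 in every condition and the highest column sum exceeded the lowest by 3.45%.

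Secreted and membrane proteins enter the ER unfolded and are folded there by BiP (the product of Hspa5), by the chaperone encoded by Hsp90b1, by the lectin chaperones calreticulin and calnexin, and by protein disulfide isomerases, which form and rearrange disulfide bonds. When unfolded protein accumulates, the sensors IRE1, PERK and ATF6 start the unfolded protein response. IRE1 splices the Xbp1 message, whose product, with ATF6, raises transcription of the chaperone genes, while PERK slows translation and induces ATF4 and CHOP (Ddit3). Purkinje cells, the output neurons of the cerebellar cortex, hold an extensive ER that serves as a calcium store, and calreticulin is one of its calcium-binding proteins.

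ATF6 and XBP1 are known to act on chaperone genes through the ER stress response element, CCAAT followed by any 9 bases and CCACG, which was looked for on both strands of the RefSeq promoter windows (250 bases before to 50 bases after the annotated start, GRCm38.p6). Windows were matched for 9 of the 10 genes (not Manf), and 5 of the 9 held the element: Hspa5, Hsp90b1, Calr, Pdia6 and Creld2. Among all 32851 windows of the reference 39 held it (0.119%), and of the 7781 windows that belong to measured genes 10 held it (0.129%), 5 of them those named above. The group was chosen as targets of the response that uses this element. Its presence in their promoters was therefore likely beforehand and is no independent result. The 6 sites are shown because they are a sequence feature that 5 of the group's promoters have in common. They are written in the orientation that begins with CCAAT, with the fixed bases in capitals and the free spacer in lower case.
Hspa5: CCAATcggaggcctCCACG
Calr: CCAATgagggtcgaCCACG
Hsp90b1 upstream site: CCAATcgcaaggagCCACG
Hsp90b1 downstream site: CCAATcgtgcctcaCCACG
Pdia6: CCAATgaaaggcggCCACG
Creld2: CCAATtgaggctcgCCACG
The site of Hspa5 spans the bases from 65 to 47 before the annotated start, that of Calr from 162 to 144, that of Pdia6 from 98 to 80 and that of Creld2 from 126 to 108. Hsp90b1 has a pair, from 212 to 194 and from 107 to 89. The windows of Hspa5 (chr2:34771840-34772139, plus strand) and Hsp90b1 (chr10:86705395-86705694, minus strand) are given in full, 5′ to 3′ on the gene's strand, with the element in capitals.
Hspa5: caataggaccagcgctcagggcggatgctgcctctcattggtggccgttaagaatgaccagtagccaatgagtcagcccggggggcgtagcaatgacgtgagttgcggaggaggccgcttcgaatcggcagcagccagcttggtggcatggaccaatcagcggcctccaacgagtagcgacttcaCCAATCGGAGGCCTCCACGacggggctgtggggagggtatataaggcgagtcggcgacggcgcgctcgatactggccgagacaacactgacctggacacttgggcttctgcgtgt
Hsp90b1: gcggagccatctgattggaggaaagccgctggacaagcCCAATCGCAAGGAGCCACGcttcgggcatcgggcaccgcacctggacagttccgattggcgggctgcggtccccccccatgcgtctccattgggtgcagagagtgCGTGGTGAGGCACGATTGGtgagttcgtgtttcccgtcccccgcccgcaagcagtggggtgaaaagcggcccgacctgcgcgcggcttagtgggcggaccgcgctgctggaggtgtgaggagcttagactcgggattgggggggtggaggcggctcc
The windows of Xbp1, Pdia3, Pdia4 and Sdf2l1 had no exact match. A second element, ATTGG followed by any base and CCACG, was found in 0 of the 9 windows and in 0.0365% of all windows. TGACGTGA was found in Hspa5 alone among the 9 (0.441% of all windows), and TGACGTGG (0.676%), TGACGTCA (1.79%) and TGATGCAA (0.895%) in none of them. CCAAT alone stood in 8 of the 9 windows and in 37.4% of all, and CCACG alone in 7 of the 9 and in 32.8% of all. Both short motifs overlap the longer element. A match describes letters in these windows and is no evidence of binding.

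All 10 genes had their highest score in wild-type cerebellum at 12 weeks, as did 21.7% of all genes. Hspa5 had a score of 88 in 92Q at 29 weeks, 104 in wild type at 29 weeks, 125 in 92Q at 12 weeks and 155 in wild type at 12 weeks. Both 29-week values lay below both 12-week values, and 92Q lay below wild type at each age. Sdf2l1, a partner of BiP and its J-domain co-chaperones in the ER lumen, was 8 in 92Q and 11 in wild type at 29 weeks, and 14 in 92Q and 18 in wild type at 12 weeks. It had the same order of conditions as Hspa5, at scores low enough that rounding to whole numbers matters. Hspa5 lies on chromosome 2 at 34771970 to 34777547 and Sdf2l1 on chromosome 16 at 17130138 to 17132383 (mm10, GENCODE M21; the values are for whole protein-coding genes).

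Hsp90b1 encodes the ER member of the Hsp90 chaperone family. Its score was 108 in 92Q and 112 in wild type at 29 weeks, and 133 in 92Q and 147 in wild type at 12 weeks. Calr, calreticulin, was 147 in 92Q and 153 in wild type at 29 weeks, and 182 in 92Q and 197 in wild type at 12 weeks. In both genes the ages lay further apart than the genotypes. Exons of Hsp90b1 overlap an antisense pseudogene, 1810014B01Rik, over 415 of their 4032 bases, and the sources do not say whether the authors' values used strand.

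The 3 protein disulfide isomerase genes differed little between genotypes at 29 weeks. Pdia3, whose product works with calnexin and calreticulin on glycoproteins, was 73 in 92Q and 72 in wild type at 29 weeks, and 84 in 92Q and 91 in wild type at 12 weeks. Pdia4 was 23 in both genotypes at 29 weeks, and 25 in 92Q and 30 in wild type at 12 weeks. Pdia6, which also acts on the sensor IRE1, was 23 in both genotypes at 29 weeks, and 30 in 92Q and 33 in wild type at 12 weeks. In all 3 the 12-week scores exceeded the 29-week scores within each genotype.

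Manf and Creld2 encode secreted or luminal ER stress proteins, and MANF is known to protect neurons and to bind BiP. Manf was 23 in 92Q and 28 in wild type at 29 weeks, and 33 in 92Q and 38 in wild type at 12 weeks. Creld2 was 10 in both genotypes at 29 weeks, and 13 in 92Q and 16 in wild type at 12 weeks. Xbp1, the transcription factor, was 69 in 92Q and 84 in wild type at 29 weeks, and 96 in 92Q and 111 in wild type at 12 weeks. The table gives 1 value for the gene, so the spliced and unspliced Xbp1 messages cannot be told apart. A set of 6 members shared the full order, lowest in 92Q at 29 weeks, then wild type at 29 weeks, 92Q at 12 weeks and wild type at 12 weeks. They were Hspa5, Hsp90b1, Xbp1, Sdf2l1, Calr and Manf, and 3.78% of all genes had that order.

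**Figure D1:**
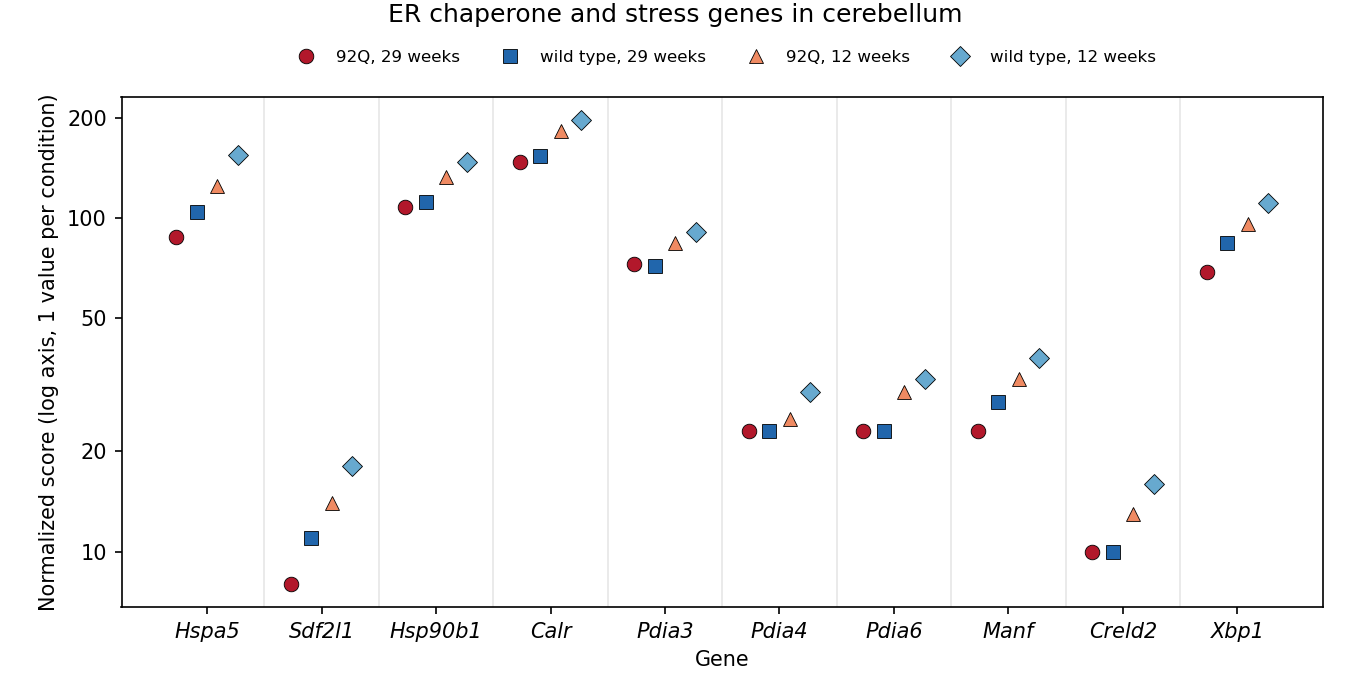
Normalized score on a log axis for the 10 genes on the horizontal axis, 1 point per gene and condition, with no error because each point is the authors' value for 3 pooled libraries. In every gene the wild-type point at 12 weeks is the highest, for example 155 for Hspa5 against 88 in 92Q at 29 weeks.

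The clearest difference was between ages. In 92Q all 10 genes were lower at 29 than at 12 weeks (35.4% of all genes were), with log2 ratios from -0.74 to -0.12 and a median of -0.36, where the median of all genes was 0.00. In wild type all 10 were again lower at 29 weeks (45.9% of all genes were), with ratios from -0.66 to -0.33 and a median of -0.41. Ratios were taken on the scale log2(score + 1), which understates differences of low genes. No condition column enters both of these comparisons. In both genotypes the labels number all 29-week libraries below all 12-week libraries, so age and the order of library numbers cannot be told apart. By a limit of 1.2-fold, 8 of the 10 were lower at 29 weeks in 92Q, against 4.3% of all genes. In wild type 10 of 10 were, against 4.46% of all genes. Hspa5, Hsp90b1, Xbp1, Sdf2l1, Creld2, Calr, Pdia6 and Manf passed the limit in both genotypes, and they were 8 of 85 genes in the table to do so (1.11%). Because the genes and limits were chosen with earlier results known, these shares describe the values and are no test.

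The sizes were moderate. At 29 weeks Hspa5 was 29.6% lower in 92Q and 32.9% lower in wild type than at 12 weeks, with log2 ratios of -0.50 and -0.57. In wild type only 11 genes of 7663 had a lower ratio than Hspa5, which ranked 12 from the lowest. Sdf2l1 had the lowest ratios of the group, -0.74 in 92Q and -0.66 in wild type, ranking 13 and 8 from the lowest. Rounding leaves the Sdf2l1 ratio anywhere from -0.87 to -0.61 in 92Q and from -0.76 to -0.57 in wild type. Sdf2l1 was also 1 of 4 genes in the table that were lower by 1.5-fold or more in both genotypes (0.0522%). Creld2 was -0.35 in 92Q and -0.63 in wild type, Pdia6 -0.37 and -0.50, and Manf -0.50 and -0.43. Their ranks from the lowest in wild type were 10, 16 and 33. In 92Q the smallest differences were those of Pdia3 (-0.20) and Pdia4 (-0.12), which were the members short of 1.2-fold there. In wild type Pdia3 was at -0.33, the smallest difference, and Pdia4 at -0.37, with Calr between them at -0.36.

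**Figure D2:**
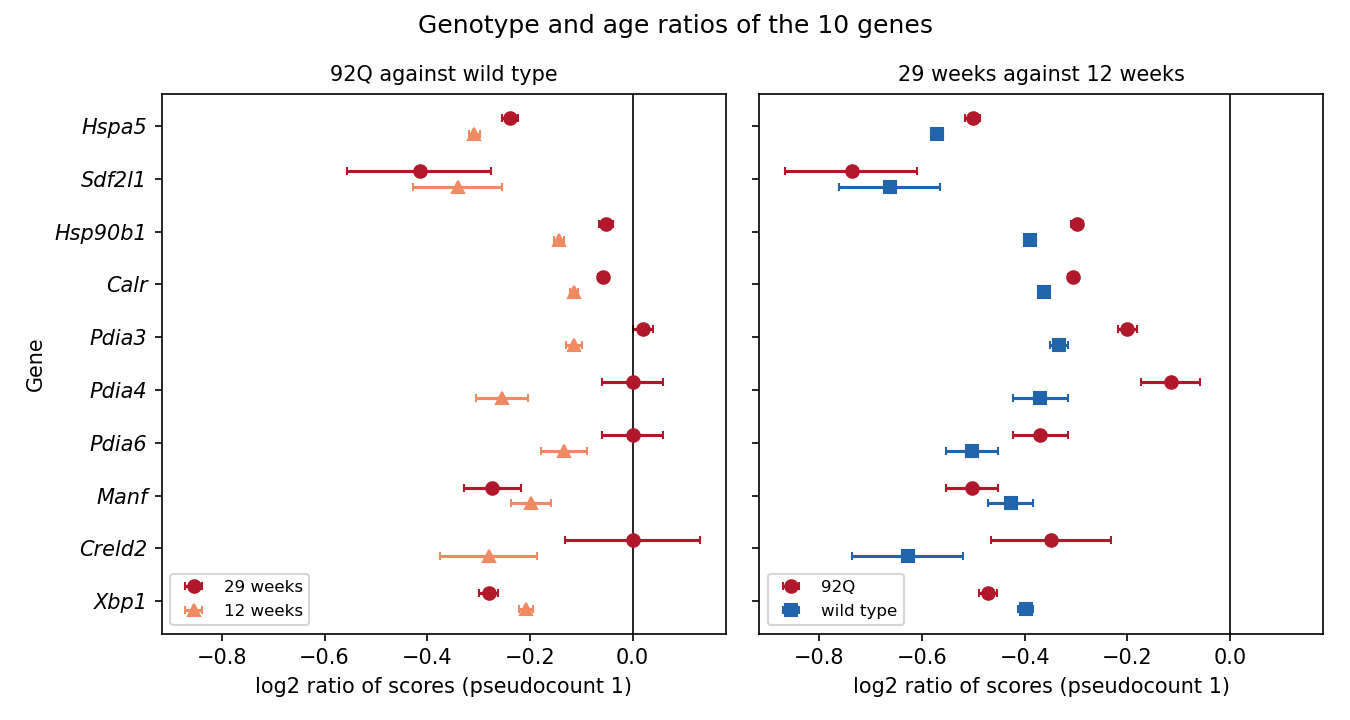
Log2 ratios of the scores (pseudocount 1) on the horizontal axis for each gene, 92Q against wild type on the left and 29 against 12 weeks on the right, with bars for the range that rounding to whole numbers leaves. In the right panel every point lies left of 0 in both genotypes, and in the left panel the 29-week points of Creld2, Pdia3, Pdia4 and Pdia6 lie at 0.00 to 0.02.

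The genotype differences were smaller. At 12 weeks all 10 genes were lower in 92Q (36.7% of all genes were), with log2 ratios from -0.34 to -0.11 and a median of -0.20. The rounding range excluded 0 for each of them. By 1.2-fold 4 were lower (1.8% of all genes): Hspa5 (-0.31), Sdf2l1 (-0.34), Creld2 (-0.28) and Pdia4 (-0.25), the last with 25 against 30 exactly at the limit. None of the members was lower by 1.5-fold at 12 weeks (0.196% of all genes were) or at 29 weeks (0.796%). The wild-type scores at 12 weeks enter both this comparison and the age comparison in wild type, so an unusual value in that condition would appear in both.

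At 29 weeks the group divided. Lower scores in 92Q were seen for 6 of the 10 (26.1% of all genes were lower), 3 were equal and Pdia3 was higher by 1 unit (49.5% of all genes were higher), and the median log2 ratio was -0.05. Sdf2l1 (-0.42), Xbp1 (-0.28) and Manf (-0.27) were lower by 1.2-fold or more, as were 3.35% of all genes, and Hspa5 followed at -0.24. Hsp90b1 and Calr were close to wild type at -0.05 and -0.06. Creld2, Pdia4 and Pdia6 had equal scores in 92Q and wild type, and Pdia3 was at 0.02. With median-ratio scaling, which moves the median of all genes to -0.0251, all 10 were lower in 92Q, these 4 with ratios of -0.0268 to -0.0079. The 6 genes lower at 29 weeks were lower at 12 weeks too, and 12.6% of all genes were lower in 92Q at both ages. The difference between the genotype ratios at 29 and at 12 weeks was positive for 7 genes, up to 0.28 for Creld2 and 0.25 for Pdia4, and negative for Xbp1 (-0.07), Sdf2l1 (-0.07) and Manf (-0.08). Its median was 0.08 over the members, against 0.00 over all genes, and it was not tested. With upper quartile, median-ratio and quantile scaling it was 0.046, 0.0525 and 0.0326.

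**Figure D3:**
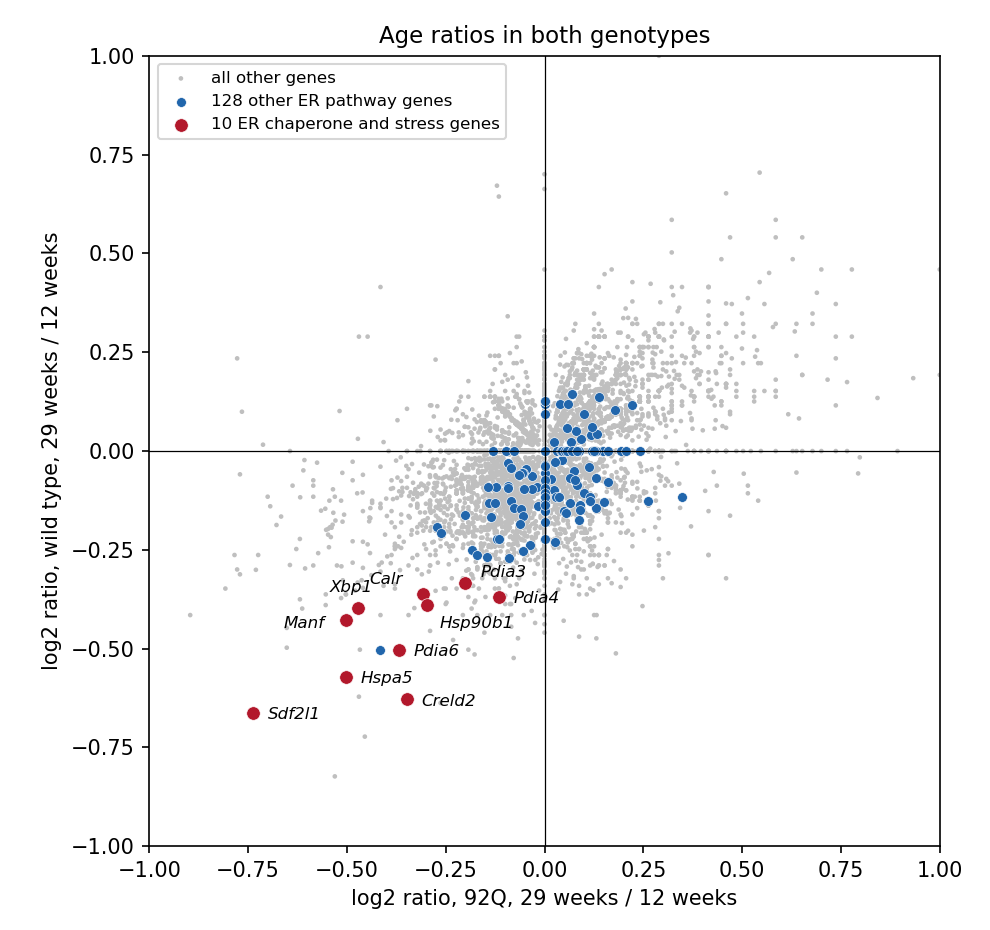
Log2 ratio of 29 against 12 weeks in 92Q (horizontal) and in wild type (vertical), 1 point per gene, for the 10 genes, 128 other ER pathway genes and all others; 37 of 7663 genes lie outside the axes. The 10 genes lie in the lower left quadrant, which also holds many other genes (85 were lower by 1.2-fold in both genotypes). The blue point beside Pdia6 is Dnajb11 at -0.42 and -0.50, and the other ER genes gather around 0.

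Other genes on ER pathway lists had smaller median differences between conditions. The 11 lists named 128 further genes with a row. They reach beyond folding to translocation, glycan attachment, export, degradation and the PERK and ATF4 arm. With age, 38 of the 128 were lower in 92Q (35.4% of all genes were) and 76 in wild type (45.9% of all genes). The medians were 0.00 and -0.06. By 1.2-fold 3 were lower in 92Q (4.3% of all genes) and 5 in wild type (4.46% of all genes). Dnajb11, a J-domain co-chaperone of BiP, was the one gene of these lists that passed in both genotypes. It was 23 in both genotypes at 29 weeks, and 31 in 92Q and 33 in wild type at 12 weeks. Between genotypes 26 of the 128 were lower in 92Q at 29 weeks (26.1% of all genes were), with a median of 0.03. At 12 weeks 72 were lower in 92Q (36.7% of all genes), with a median of -0.04. The same shares of all genes hold beside the counts of the separate lists below.

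Among the partners of BiP, Hyou1, its nucleotide exchange factor, was 22 in 92Q and 23 in wild type at 29 weeks, and 24 in 92Q and 27 in wild type at 12 weeks. Dnajb9, a co-chaperone induced by XBP1, was 24 in both genotypes at 29 weeks, and 23 in 92Q and 22 in wild type at 12 weeks, so it was slightly lower at 12 weeks. Sdf2, the paralogue of Sdf2l1, was 30 in 92Q and 29 in wild type at 29 weeks, and 30 in 92Q and 33 in wild type at 12 weeks. The age ratios of this list of 10 had a median of 0.00 in each genotype. Canx, calnexin, the membrane-bound counterpart of calreticulin, was 91 in 92Q and 88 in wild type at 29 weeks, and 92 in 92Q and 97 in wild type at 12 weeks. Its age ratios were -0.02 in 92Q and -0.14 in wild type, against -0.31 and -0.36 for Calr. The 7 genes of the calnexin cycle had none past 1.2-fold in any of the 4 comparisons.

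Of 11 other disulfide isomerases and oxidases, 1 was lower by 1.2-fold with age in 92Q and 0 in wild type. That gene was Erp29, a luminal relative without a redox site, at 57 in 92Q and 69 in wild type at 29 weeks, and 69 in 92Q and 79 in wild type at 12 weeks. P4hb, the founding protein disulfide isomerase, was 60 in 92Q and 52 in wild type at 29 weeks, and 54 in 92Q and 57 in wild type at 12 weeks. Its ratio to wild type at 29 weeks was 0.20, where those of Pdia3, Pdia4 and Pdia6 lay between 0.00 and 0.02. The PERK and ATF4 arm had 20 genes, of which 0 in 92Q and 1 in wild type were lower with age by 1.2-fold. That one was Ddit3, which encodes CHOP, at 25 in both genotypes at 29 weeks, and 26 in 92Q and 30 in wild type at 12 weeks. Atf4 was 157 in 92Q and 170 in wild type at 29 weeks, and 171 in 92Q and 181 in wild type at 12 weeks.

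The list of sensors and activating proteases had 7 genes. Atf6 was 15 in all 4 conditions. Eif2ak3, which encodes PERK, was 12 in 92Q and 10 in wild type at 29 weeks, which is 1.2-fold, and 11 in both genotypes at 12 weeks. Atf6b was 24 in 92Q and 25 in wild type at 29 weeks, and 29 in both genotypes at 12 weeks, and was the one gene of the list lower with age by 1.2-fold, in 92Q. In ER-associated degradation 0 of 20 genes passed 1.2-fold in either direction in any of the 4 comparisons. Vimp, a selenoprotein of the retrotranslocation complex, came nearest, at 36 in 92Q and 41 in wild type at 29 weeks, and 41 in 92Q and 49 in wild type at 12 weeks. Oligosaccharyltransferase subunits, which attach glycans to entering proteins, were lower with age in 10 of 11 genes in wild type (median -0.15) and in 5 of 11 in 92Q (median 0.00). They were lower in 92Q in 10 of 11 at 12 weeks (median -0.08) and in 2 of 11 at 29 weeks (median 0.06). Translocon and signal peptidase genes had medians with age of 0.00 in 92Q and -0.09 in wild type over 19 genes, and ER export genes 0.02 and -0.03 over 14, the last turning to 0.005 with upper quartile scaling.

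**Figure D4:**
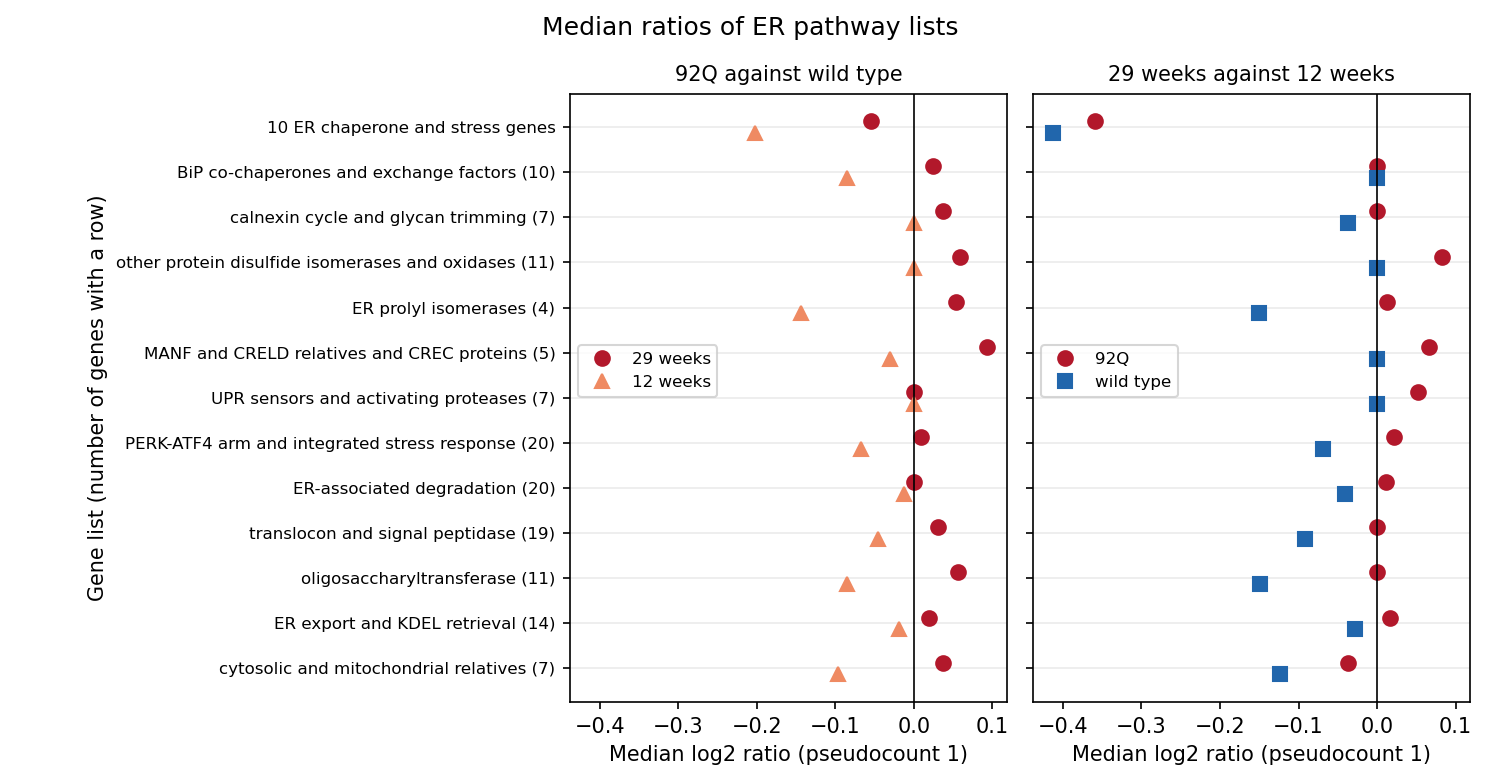
Median log2 ratio (pseudocount 1) of the 10 genes and of 12 further lists, with the number of genes in parentheses, 92Q against wild type on the left and 29 against 12 weeks on the right. In the right panel the 10 genes lie at -0.36 in 92Q and -0.41 in wild type, and the further lists lie between -0.15 and 0.08.

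Relatives of the chaperones outside the ER had smaller age medians. Hsp90ab1, the cytosolic counterpart of Hsp90b1, was 319 in 92Q and 291 in wild type at 29 weeks, and 316 in 92Q and 317 in wild type at 12 weeks. Hspa8, a cytosolic relative of Hspa5, was 38 in 92Q and 37 in wild type at 29 weeks, and 42 in 92Q and 45 in wild type at 12 weeks. The list of 7 cytosolic and mitochondrial relatives had age medians of -0.04 in 92Q and -0.12 in wild type. Hspa8 in wild type was its 1 case past 1.2-fold. All 7 were lower with age in wild type (45.9% of all genes were), and 4 of 7 in 92Q (35.4%). At 12 weeks all 7 were lower in 92Q (36.7% of all genes), with a median of -0.10. At 29 weeks 1 of 7 was lower in 92Q (26.1%). The 10 members were likewise all lower with age in wild type and in 92Q at 12 weeks.

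The members with and without the promoter element were both lower with age. The 5 with it had median age ratios of -0.35 in 92Q and -0.50 in wild type, and the other 5, of which Manf had no window, had -0.47 and -0.40. Outside the group 5 genes in the table held the element: Canx, Dnajc3, a co-chaperone that inhibits PERK, Syvn1, the ubiquitin ligase of ER-associated degradation, and Adcy3 and Pan2. Their median age ratios were -0.02 in 92Q and -0.09 in wild type. By 1.2-fold 0 of the 5 was lower in 92Q (4.3% of all genes were) or in wild type (4.46%). With shares this small, a count over 5 genes does not set them apart from other genes. Adcy3, Pan2 and Dnajc3 had scores from 8 to 19, low enough that rounding to whole numbers matters. Syvn1 was 28 in 92Q and 30 in wild type at 29 weeks, and 31 in 92Q and 32 in wild type at 12 weeks.

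The genes with the profile closest to the members' mean were sought among 1497 other genes with a mean score of 50 or more. Closeness was the root mean square difference of centred log2 profiles over the 4 conditions. Metrn, which encodes the secreted protein meteorin, was nearest at 0.06, with 179 in 92Q and 177 in wild type at 29 weeks, and 219 in 92Q and 243 in wild type at 12 weeks. Golga7b, Kcnk3, Gm2694, Hopx, Fndc5, Tmem132a, Clec2l, Id2 and Pvalb followed at up to 0.09, where the median of the genes searched was 0.22. The members themselves lay from 0.05 for Xbp1 to 0.18 for Sdf2l1 from their own mean. Hopx is also on the list of astrocyte and Bergmann glia markers and Pvalb on that of Purkinje cell markers. A mean of 50 was reached by 26 of the 128 other ER genes, none of them among the 10 nearest. With a minimum mean of 20, which 90 of the 128 reached, 3 of the same 10 were chosen, and Dnajb11 ranked 7 at 0.0652.

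The wild-type column at 12 weeks, where all 10 genes were highest, also stood apart in genes outside the group, picked with their values in view. The Y-linked genes Ddx3y and Eif2s3y were 11 and 15 in 92Q and 5 and 6 in wild type at 29 weeks, and at 12 weeks they were 9 and 12 in 92Q, while wild type had both at 0. Xist, the X inactivation RNA of female cells, was 25 in 92Q and 63 in wild type at 29 weeks, and 30 in 92Q and 66 in wild type at 12 weeks. The sexes of the pooled mice are not given in the labels used here, and these values differed between genotypes at both ages. Only wild type at 12 weeks had both Y-linked genes at 0. A difference in sex make-up therefore cannot be told apart from genotype at either age or from age in wild type. Of 3 non-coding RNAs, Rn45s (ribosomal RNA precursor) was 124 in 92Q and 127 in wild type at 29 weeks, and 159 in 92Q and 283 in wild type at 12 weeks. Rmrp, the RNA of RNase MRP, was 1 in both genotypes at 29 weeks, and 7 in 92Q and 40 in wild type at 12 weeks. Rpph1, the RNA of RNase P, was 4 in 92Q and 5 in wild type at 29 weeks, and 6 in 92Q and 25 in wild type at 12 weeks. The part of sex and of these RNAs in the chaperone values was not tested.

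Cell type signal moved between these conditions as well, and its part in the chaperone values was not tested. In bulk tissue, fewer cells of a type and less RNA per cell cannot be told apart. Purkinje cell markers, 17 of 18 with a row and none at 0, had a summed score of 3937 in 92Q and 6203 in wild type at 29 weeks, and 5865 in 92Q and 7411 in wild type at 12 weeks. Their median log2 ratio with age was -0.57 in 92Q and -0.19 in wild type, and that of 92Q to wild type -0.61 at 29 weeks and -0.26 at 12 weeks. Against these, the chaperone medians were larger in size than the Purkinje medians only for age in wild type (-0.41). At 29 weeks all 17 Purkinje markers were lower in 92Q, as were 6 of the 10 chaperone genes. Granule neuron markers, 12 of 12 with none at 0, summed to 2437 in 92Q and 2697 in wild type at 29 weeks, and 3094 in 92Q and 2978 in wild type at 12 weeks. With age all 12 were lower in 92Q (35.4% of all genes were), with a median log2 ratio of -0.27. In wild type 10 were lower (45.9% of all genes), 1 was higher and 1 equal, with a median of -0.09. The chaperone genes were likewise lower with age in both genotypes. Choroid plexus markers, 8 of 13, with Sostdc1 and Kl at 0 in at least 1 condition, summed to 1729 in 92Q and 586 in wild type at 29 weeks, and 68 in 92Q and 464 in wild type at 12 weeks. Of these sums Ttr held 1403 in 92Q and 445 in wild type at 29 weeks. At 12 weeks Ttr was 6 in 92Q and 336 in wild type. Microglia markers, 12 of 16 with none at 0, summed to 426 in 92Q and 199 in wild type at 29 weeks, and 171 in 92Q and 169 in wild type at 12 weeks. Both of these lists were higher at 29 weeks in each genotype, the opposite of the chaperone genes. Oligodendrocyte markers, 9 of 9, summed to 4264 in 92Q and 3994 in wild type at 29 weeks, and 3731 in 92Q and 3976 in wild type at 12 weeks. Of these sums Mbp held 2897 in 92Q and 2723 in wild type at 29 weeks. At 12 weeks Mbp was 2492 in 92Q and 2614 in wild type. With age in wild type 6 of the 9 markers were lower and 3 higher. Astrocyte and Bergmann glia markers, 10 of 10, summed to 3984 in 92Q and 3663 in wild type at 29 weeks, and 3572 in 92Q and 3843 in wild type at 12 weeks. At 29 weeks 5 of the 10 were lower in 92Q (26.1% of all genes were) and 5 higher (49.5%). Of these sums Apoe held 1552 in 92Q and 1062 in wild type at 29 weeks, and Aldoc 924 and 1227. At 12 weeks Apoe was 1094 in 92Q and 1105 in wild type, and Aldoc 1055 and 1284. Meningeal and vessel markers, 7 of 11, summed to 1622 in 92Q and 1433 in wild type at 29 weeks, and 1336 in 92Q and 1638 in wild type at 12 weeks, and no marker of these last 3 lists was at 0. Of the meningeal and vessel sums Ptgds held 1499 in 92Q and 1349 in wild type at 29 weeks. At 12 weeks Ptgds was 1259 in 92Q and 1551 in wild type. With age in wild type that list had 2 lower, 2 higher and 3 equal, with a median log2 ratio of 0.00.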

How the data were processed

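Total RNA of 12 cerebellar libraries was profiled by single-end Illumina sequencing, per the labels' protocols. Bowtie 0.12.7, SAMtools 0.1.12a, Cuffdiff 1.3.0 and the build mm10 are named without role or order, per the submitters' processing notes. The deposited score is a whole number per gene and condition, in which the authors combined 3 libraries; equal column medians were read as normalization across conditions, and how it was normalized, filtered or assigned by strand is not stated. Of 7684 rows, 17 with a number for a name were left out. The smallest row maximum was 10, so genes below it in every condition have no row.

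Log2 ratios used a pseudocount of 1 and genes with 5 or more in one or both conditions. Limits of 1.2-fold and 1.5-fold were applied to the scores themselves. Rounding ranges moved each score by 0.5. Shares of all genes stand beside member counts in place of a test. Fold recovery was checked on simulated columns. Further genes were named by size of genotype ratio (up to 4 per list with a mean of 20 or more) or by closest profile; any other gene was picked with its values in view. The members, lists and limits were chosen with earlier results of these data known. Groups follow the sample titles. Promoters came from RefSeq (GRCm38.p6) and gene positions from GENCODE M21. Python 3.11.15, numpy 2.4.6 and pandas 2.3.3 were used. Alternatives were other pseudocounts, scalings, minimum scores and leaving out each member. A planned list of proteins ending in an ER retrieval signal was not analysed here.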

Additional observations from a re-analysis of the deposited data

Results flagged for a closer look

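None of the 10 chaperone and stress genes had ratios of opposite sign outside the rounding range. Among the other ER genes named by the rule, some had log2 ratios of 92Q to wild type that were positive at 29 weeks and negative at 12 weeks, both outside the range left by rounding, and this difference was not tested. They were Canx (0.0478 at 29 weeks and -0.0756 at 12 weeks), P4hb (0.20 at 29 weeks and -0.0766 at 12 weeks), Ppib (0.11 at 29 weeks and -0.15 at 12 weeks), Psat1 (0.10 at 29 weeks and -0.13 at 12 weeks), Srp14 (0.14 at 29 weeks and -0.0902 at 12 weeks), Tusc3 (0.12 at 29 weeks and -0.12 at 12 weeks) and Tmed9 (0.10 at 29 weeks and -0.0995 at 12 weeks).

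Log2 ratios of 29 to 12 weeks were positive in 92Q and negative in wild type for some of them, again untested. The same held for Hsp90ab1, a cytosolic relative and not an ER gene. They were P4hb (0.15 in 92Q and -0.13 in wild type), Psat1 (0.16 in 92Q and -0.0794 in wild type), Ufd1l (0.0825 in 92Q and -0.0849 in wild type), Srp9 (0.13 in 92Q and -0.14 in wild type), Srp14 (0.0902 in 92Q and -0.14 in wild type), Tusc3 (0.0893 in 92Q and -0.15 in wild type), Kdelr1 (0.0995 in 92Q and -0.11 in wild type) and Hsp90ab1 (0.0136 in 92Q and -0.12 in wild type). Genes named under both share condition values between the comparisons.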

How the results depend on the processing

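Under pseudocounts of 0.1 and 5, upper quartile, median-ratio and quantile scaling, and minimum scores of 10 or none, 280 member ratios were recomputed: 235 stayed inside the rounding range of the reported value and 45 left it. The direction held for all except the 29-week genotype ratio of Pdia3, which was -0.0079 with median-ratio scaling; there the 3 members with equal scores also fell below 0, so that 10 were lower by any amount. Medians of other lists that were close to 0 changed sign with scaling; the largest of these was that of ER prolyl isomerases for genotype at 29 weeks, reported as 0.05 and -0.0006 with quantile normalization. Counts of members lower by 1.2-fold stayed within 1.5 times. The wild-type age median was -0.38 with a pseudocount of 5 and -0.38 with upper quartile scaling, the 12-week genotype median was -0.17 with upper quartile scaling, and the median change of genotype ratio between ages was 0.0326 with quantile normalization; the cause of these moves was not tested. Of the genes closest to the members, 3 of 10 were shared when the minimum mean was 20. Leaving out each member moved the medians between -0.06 and -0.05 and between -0.21 and -0.20 for genotype at 29 and 12 weeks, and between -0.37 and -0.35 in 92Q and between -0.43 and -0.40 in wild type for age. No paired analysis was possible because the columns hold 1 value per condition, and leaving out a library was not possible for the same reason. The planned list by protein C-terminus was not run. Depth is unknown, and rounding limits the genes near 10.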
